A study of Mus musculus with 12 samples.

Results

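The Ifi200 genes of the mouse, also called the HIN-200 or PYHIN genes, encode proteins that bind double-stranded DNA. The RNA of 10 of them was measured in whole mouse lung, out of 24704 genes with a symbol on the array. They were Aim2, Ifi203, Ifi204, Ifi205, Ifi207, Ifi208, Ifi209, Ifi211, Ifi213 and Mndal, taken by gene symbol from the platform annotation, with 1 probe set each. The set was chosen because Ifi209 was lower in hypoxic lungs, so the hypoxia values of these genes are described and support nothing. Where hypoxia calls are counted, the counts restate that choice in part.

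The arrays came from 12 mice in 4 groups of 3, and all of them carried floxed Nfat5 alleles. Knockout (KO) mice, labelled Nfat5(EC)-/-, had lost Nfat5 in endothelial cells after 1 mg of tamoxifen daily for 5 days, and were kept in hypoxia for 21 days or in normoxia. Control mice, labelled Nfat5fl/fl, had the solvent miglyol in place of tamoxifen and were kept in the same pair of oxygen states. Males and females aged 10 to 12 weeks were treated and rested 2 to 3 weeks before use. The labels name no Cre line, and loss of Nfat5 and exposure to tamoxifen cannot be told apart. The submitters' design text counts 4 mice per group, and it states that preparations holding other tissue or responding too little to hypoxia were left out. The hypoxia comparison therefore rests on lungs chosen in part by their response. In whole lung, fewer cells of a type and less RNA per cell cannot be told apart.

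Most Ifi200 proteins join a pyrin domain, which docks onto signalling partners, to a HIN domain, which grips the DNA backbone whatever its sequence. Aim2 is the clearest case of function: on meeting DNA in the cytosol it gathers the adaptor Asc and caspase-1 into an inflammasome that releases interleukin-1β. Ifi204 is the mouse protein most often set beside human IFI16 and signals through Sting to type I interferon. The other members were mostly found as genes that interferon switches on, and their own roles are less settled. Macrophages, dendritic cells and lymphocytes are the best known sources of their RNA in lung.

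The family lies in 1 cluster on chromosome 1 of the mouse reference GRCm38.p6, where the order is Aim2, Ifi206, Ifi214, Ifi213, Ifi209, Ifi208, Ifi207, Ifi204, Mndal, Ifi211, Ifi203, Ifi202b and Ifi205. RefSeq promoters, from 250 bases before the annotated start to 49 after it, were at hand for 9 of the 10 members, and not for Ifi204. Interferon regulatory factors bind repeats of GAAA, and the promoters were searched on both strands for AAANNGAAA and for a longer form, the same letters with a G before them, which is a subset of these matches. A gene was counted once if any of its promoter entries matched. The longer form was in 7 of the 9 members, against 3.99% of the 27025 genes with a promoter entry. The shorter form was in 8 of the 9, against 12.1% of all these genes, and Ifi209 had the shorter form only. The 40 bases around it are shown for these 8 genes, read 5′ to 3′ on each gene's own strand, to show how alike the stretch is in Ifi209 and its neighbours. Ifi203 and Mndal have 2 promoter entries each, and the one shown holds a match on the gene's own strand. Capitals mark the match to AAANNGAAA.
Ifi213, chr1:173599315-173599354, minus strand: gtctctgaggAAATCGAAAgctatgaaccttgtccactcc
Ifi209, chr1:173630771-173630810, plus strand: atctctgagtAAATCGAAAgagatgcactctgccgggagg
Ifi208, chr1:173673598-173673637, plus strand: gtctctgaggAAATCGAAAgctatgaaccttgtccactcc
Ifi207, chr1:173741820-173741859, minus strand: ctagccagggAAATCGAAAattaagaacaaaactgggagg
Mndal, chr1:173880193-173880232, minus strand: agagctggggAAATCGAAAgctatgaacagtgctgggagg
Ifi211, chr1:173913053-173913092, minus strand: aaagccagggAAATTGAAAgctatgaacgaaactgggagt
Ifi203, chr1:173942497-173942536, minus strand: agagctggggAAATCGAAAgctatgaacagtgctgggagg
Ifi205, chr1:174031859-174031898, minus strand: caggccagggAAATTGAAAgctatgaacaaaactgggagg

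Counted from the annotated start, the match began between positions -78 and -34 in 7 of these genes and at -133 in Ifi205. The member promoters were near copies of each other in places. Those of Ifi208 and Ifi213 were 98.9% identical over 285 aligned bases, and those of Ifi203 and Mndal 94.3% over 299. The closest to the Ifi209 promoter was that of Ifi214, with 95.7% identity over 300 bases. Because the genes are copies, their matches are not independent of each other.

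The whole promoter of Ifi209 is shown because this gene had the largest hypoxia difference of the 10, averaged over genotypes. That of Aim2 is shown because Aim2 was the only member searched with no match in any promoter entry. Capitals mark AAANNGAAA.
Ifi209, chr1:173630609-173630908, plus strand: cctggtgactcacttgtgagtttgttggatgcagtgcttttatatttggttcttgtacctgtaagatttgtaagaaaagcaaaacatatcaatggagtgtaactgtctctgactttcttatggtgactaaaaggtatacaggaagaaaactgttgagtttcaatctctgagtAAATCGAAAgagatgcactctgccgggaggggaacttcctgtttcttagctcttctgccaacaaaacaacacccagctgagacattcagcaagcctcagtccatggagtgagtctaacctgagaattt
Aim2, chr1:173420354-173420653, plus strand: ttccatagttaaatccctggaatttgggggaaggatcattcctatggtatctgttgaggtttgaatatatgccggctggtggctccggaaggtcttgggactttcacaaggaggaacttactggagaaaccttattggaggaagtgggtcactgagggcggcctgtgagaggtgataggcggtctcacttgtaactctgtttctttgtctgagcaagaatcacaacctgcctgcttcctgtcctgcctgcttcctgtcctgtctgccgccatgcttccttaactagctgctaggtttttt

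ACGTG, the core read by hypoxia-inducible factors, was in 0 of the 9 members, against 21.8% of all genes with a promoter entry. TGGAAA, a core read by NFAT proteins, was in Ifi211, Ifi213 and Mndal, against 23.9% of these genes. A match describes letters and is neither a shown binding site nor a cause of any value below.

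**Figure D1:**
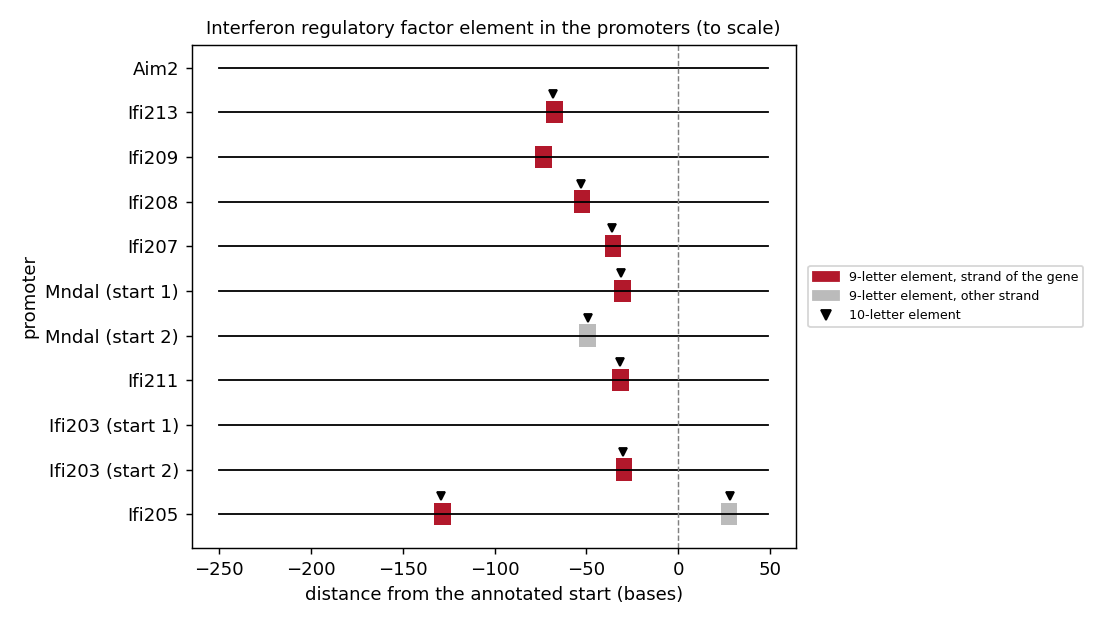
Matches to AAANNGAAA in the promoters of the 9 members with a RefSeq entry. The horizontal axis is the distance in bases from the annotated start, red marks are on the gene's strand, grey marks on the other strand, and a triangle marks the longer, 10-letter form that starts with a G. In 7 genes the red mark starts between -78 and -34, Ifi205 has it farther upstream, and Aim2 has none.

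Arrays of the same group correlated at r between 0.989 and 0.994 over all genes, and the lung marker Sftpc, of alveolar type II cells, was at 13.36 to 13.58 on the log2 scale on every array. That is close to the highest value of the data, 13.68, and RMA gives all arrays the same distribution. The steady Sftpc level therefore does not show that lung content was alike. Nfat5 itself was at 8.59, 8.80 and 8.62 in normoxic KO lungs and 9.01, 9.39 and 8.92 in normoxic control lungs. The difference of -0.44 ± 0.15 (SE) had a limma adjusted p of 0.62, and in hypoxia it was -0.08 ± 0.15 (adjusted p = 0.974). Marker genes of other tissue were high on 3 arrays. Ucp1, a brown fat gene, was at 9.31 in normoxic KO replicate 2 and 7.66 in hypoxic control replicate 1, and at 4.28 or less on the others. Nppa, an atrial hormone gene, was at 11.94 in normoxic KO replicate 2 and 9.41 in normoxic KO replicate 4. On the others it was between 6.60 and 8.44, so the rise on normoxic KO replicate 4 was modest. Y-linked genes were high on 1 of 3 arrays in each hypoxic group and on 2 of 3 in each normoxic group, so sex was not balanced over oxygen states.

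All expression values are log2 values of 1 probe set on 1 array, as deposited. They compare arrays for a gene and not one gene with another. The median over all genes and arrays was 4.55, and 5 members (Ifi203, Ifi205, Ifi209, Ifi211 and Mndal) had at least 1 group mean above it. The other 5 had every group mean below it, and no detection calls accompany the values. Probes of such similar genes may also capture each other's RNA, and probe positions were not used here.

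**Figure D2:**
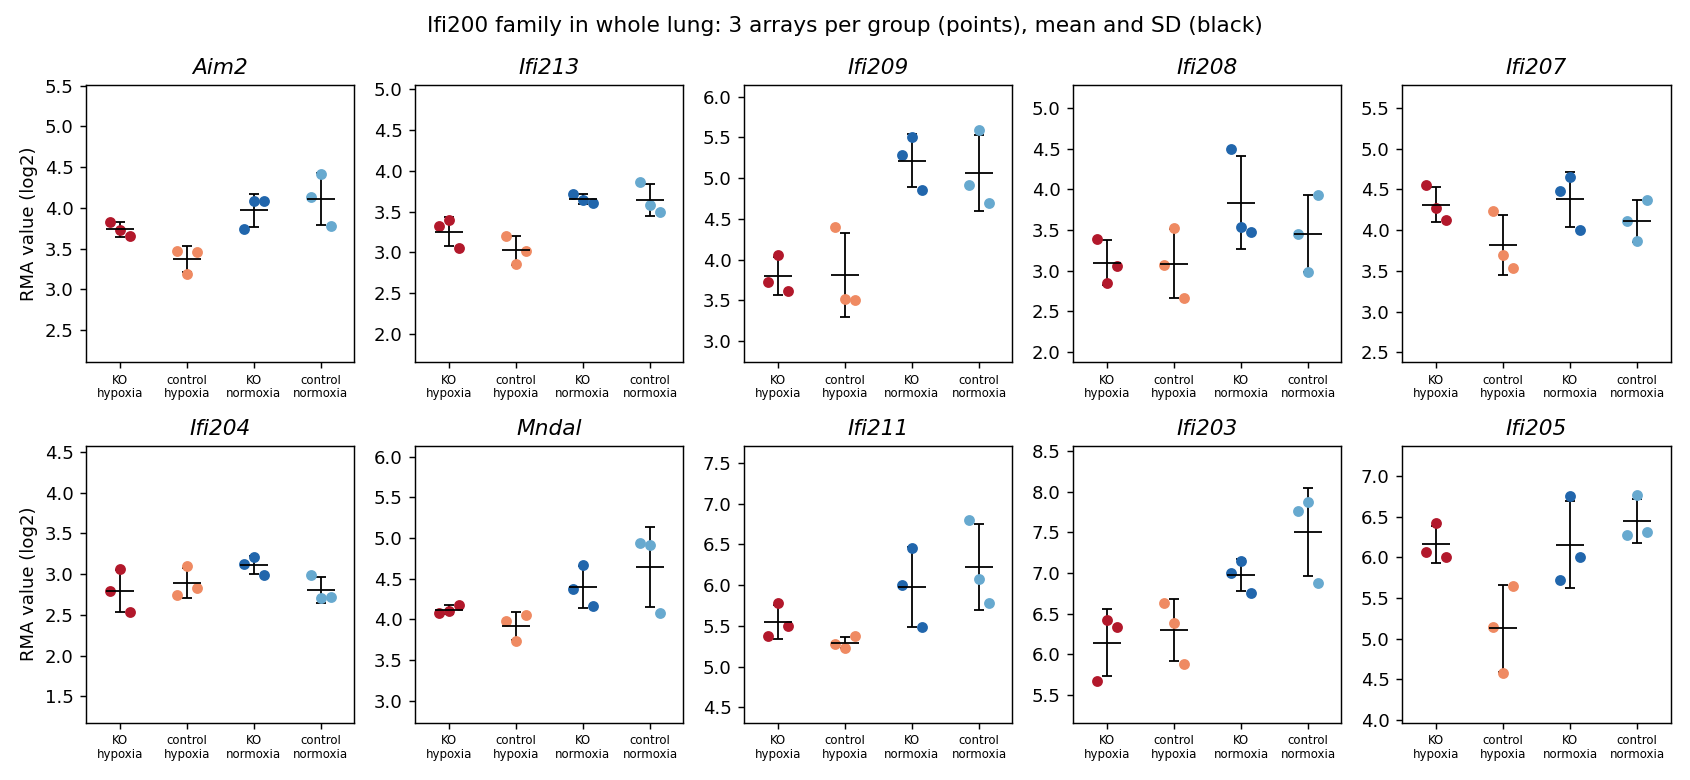
Log2 expression of the 10 members on each of the 12 arrays, 1 panel per gene in chromosomal order, with points for arrays and bars for group means. Hypoxic Ifi209 points of both genotypes lie below all normoxic ones, and for Ifi205 only the hypoxic control points sit apart from the rest.

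Ifi209, whose human relative PYHIN1 (IFIX) has been described as a nuclear DNA sensor, was lower in the hypoxic lungs of both genotypes. It was at 3.73, 4.06 and 3.61 in hypoxic KO lungs and at 5.28, 5.51 and 4.86 in normoxic KO lungs. In control lungs it was at 4.40, 3.52 and 3.51 in hypoxia and at 4.91, 5.59 and 4.70 in normoxia. All 6 hypoxic arrays were thus below all 6 normoxic arrays. The log2 difference, hypoxia minus normoxia, was -1.42 ± 0.28 (SE) in KO and -1.25 ± 0.28 in control lungs, which is 2.67-fold and 2.39-fold lower. Averaged over genotypes it was -1.34 ± 0.20. In order of group means, Ifi209 stood at 5.22 ± 0.33 (SD, n = 3) in normoxic KO, 5.07 ± 0.46 in normoxic control, 3.81 ± 0.51 in hypoxic control and 3.80 ± 0.23 in hypoxic KO lungs. Among neighbours in that order, only the normoxic and hypoxic controls had ranges that did not overlap.

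Ifi203, an interferon-induced member whose promoter is close to that of Mndal, had the next largest averaged difference. It was at 5.68, 6.42 and 6.34 in hypoxic KO lungs and at 7.0, 7.15 and 6.76 in normoxic KO lungs. Hypoxic control lungs had 6.63, 6.39 and 5.88, and normoxic control lungs 7.76, 7.87 and 6.88. The hypoxic arrays were below the normoxic ones in both genotypes, with a log2 difference of -0.82 ± 0.28 (SE) in KO and -1.20 ± 0.28 in control lungs. Ifi213, a pyrin-domain gene beside Ifi209, showed the same separation at a dim level. It was at 3.32, 3.39 and 3.05 in hypoxic KO and at 3.72, 3.64 and 3.60 in normoxic KO lungs. Control values were 3.20, 2.85 and 3.02 in hypoxia and 3.86, 3.58 and 3.49 in normoxia. Ifi209, Ifi203 and Ifi213 were the 3 members with all hypoxic arrays below all normoxic ones in both genotypes, a pattern seen in 3.64% of all genes.

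Aim2, the inflammasome sensor, was at 3.83, 3.73 and 3.65 in hypoxic KO lungs and at 3.74, 4.08 and 4.09 in normoxic KO lungs, which overlapped. In control lungs it was at 3.47, 3.19 and 3.46 in hypoxia and at 4.13, 4.42 and 3.78 in normoxia, which did not. The log2 difference between oxygen states was -0.24 ± 0.16 (SE) in KO and -0.74 ± 0.16 in control lungs. Mndal, named for the human myeloid nuclear antigen MNDA, followed the same form, with -0.28 ± 0.21 in KO and -0.72 ± 0.21 in control lungs. Its arrays were at 4.08, 4.10 and 4.18 in hypoxic KO, 4.37, 4.67 and 4.16 in normoxic KO, 3.98, 3.73 and 4.05 in hypoxic control and 4.94, 4.92 and 4.08 in normoxic control lungs. Ifi211 was at 5.37, 5.78 and 5.5 in hypoxic KO and 6.0, 6.46 and 5.48 in normoxic KO lungs. In control lungs it was at 5.28, 5.23 and 5.37 in hypoxia and at 6.80, 6.08 and 5.78 in normoxia. Mndal and Ifi211 were thus separated by oxygen in control lungs, Mndal narrowly, and overlapped in KO lungs.

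Ifi205, known in macrophages as the D3 gene, was the member in which the genotypes looked least alike. It was at 6.06, 6.42 and 6.0 in hypoxic KO lungs and at 5.72, 6.75 and 6.0 in normoxic KO lungs, a difference of 0.00 ± 0.29 (SE). In control lungs it was at 5.15, 4.58 and 5.65 in hypoxia and at 6.27, 6.76 and 6.31 in normoxia, a difference of -1.32 ± 0.29 or 2.5-fold lower. The hypoxic control arrays were the 3 lowest of the 12, narrowly so, with 5.65 next to 5.72 in normoxic KO lungs.

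The remaining 3 members were not separated by oxygen in control lungs. Ifi208, a pyrin-domain gene, differed between oxygen states by -0.74 ± 0.31 (SE) in KO lungs, where the hypoxic arrays at 2.85 to 3.39 were below the normoxic ones at 3.47 to 4.50, and by -0.37 ± 0.31 in control lungs, where they overlapped. Ifi207 differed by -0.06 ± 0.21 in KO and -0.29 ± 0.21 in control lungs. Ifi204, the Sting-linked member, spanned 2.54 to 3.21 over all 12 arrays and differed by -0.31 ± 0.14 in KO and 0.08 ± 0.14 in control lungs. Its hypoxic and normoxic arrays overlapped in both genotypes.

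The members were picked for a hypoxia difference in Ifi209, so the counts that follow are a description and nothing is read from them. In the family, 1 of 10 members (Ifi209) was lower in hypoxic KO lungs at a limma adjusted p under 0.05, against 0.502% of all genes called lower there. In control lungs 7 of 10 were lower (Ifi203, Ifi205, Ifi209, Ifi211, Ifi213, Aim2 and Mndal), against 6.14% of all genes. Averaged over genotypes the count was 6 of 10, against 7.4% of all genes, and Ifi205 was not among them. No member was called higher in any of the 3. The median member difference was -0.35 in KO and -0.73 in control lungs, against medians of 0.00 and 0.01 over all genes. All hypoxic arrays were below all normoxic ones for 4 members in KO lungs (Ifi203, Ifi208, Ifi209 and Ifi213) and for the 7 called members in control lungs, against 8.97% and 13.7% of all genes. Leaving out both arrays with high Ucp1, Ifi209 differed by -1.27 in KO and -1.55 in control lungs. The KO count became 0 and the control count 5. Leaving out both arrays with high Nppa left 1 normoxic KO array, against which Ifi209 differed by -1.48, and the KO count was 0 with the spread taken from the other groups. The control count rested on few arrays: it was 0 without hypoxic control replicate 2, 1 without normoxic control replicate 2, and 1 when only the 6 control arrays were fitted. The KO count of 1 was 0 on leaving out each single KO array or normoxic control replicate 1. With the Y-linked genes as a covariate Ifi209 differed by -1.42 in KO and -1.26 in control lungs, and the counts were 0 and 6.

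**Figure D3:**
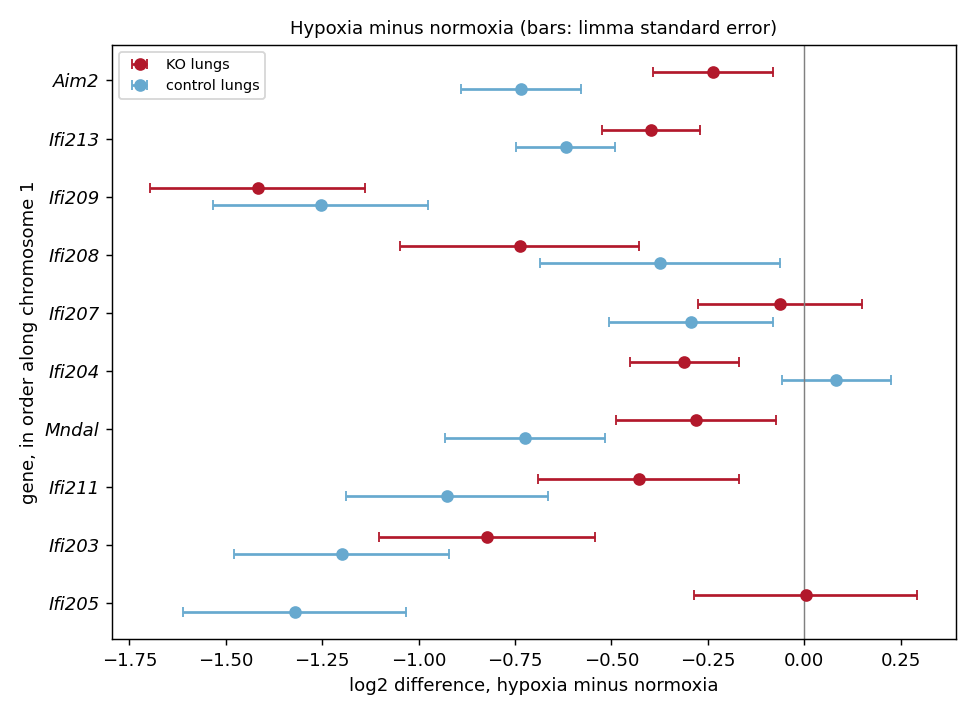
Log2 difference between hypoxic and normoxic lungs for each member, in KO and in control lungs. Bars show the limma standard error and are narrower than 95% intervals. Ifi209 is at -1.42 in KO and -1.25 in control lungs, while Ifi205 is at 0.00 in KO and -1.32 in control lungs.

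The question that the knockout design adds is whether loss of endothelial Nfat5 changes these levels or their hypoxia difference. None of the 10 members passed an adjusted p under 0.05 in limma for KO against control lungs in hypoxia, where 0% of all genes passed. None passed in normoxia, where 0.00405% passed. At an unadjusted p under 0.05 there were 3 members in hypoxia and 0 in normoxia, against 5.1% and 7.26% of all genes. The adjusted p of the members lay between 0.947 and 0.999 in hypoxia and between 0.695 and 0.994 in normoxia.

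The widest gap was that of Ifi205 in hypoxia. KO lungs averaged 6.16 ± 0.22 (SD, n = 3) and control lungs 5.12 ± 0.54. The difference was 1.04 ± 0.29 (SE), or 2.05-fold, with a 95% interval of 0.40 to 1.67 and a limma adjusted p of 0.947. Ifi207 came next with 0.50 ± 0.21 and an interval of 0.03 to 0.96 (limma adjusted p = 0.947), with 4.32 ± 0.22 in KO and 3.82 ± 0.37 in control lungs. For Ifi205, Aim2 and Mndal all 3 hypoxic KO arrays were above all 3 hypoxic control arrays, a pattern of 4.55% of all genes, and for 0 members all of them were below, against 5.19%. In normoxia 0 members had all KO arrays above or all below the control arrays, against 5.46% and 6.22% of all genes. In normoxia the members ranged from -0.53 for Ifi203 (interval -1.14 to 0.08, limma adjusted p = 0.72) to 0.38 for Ifi208. Ifi204, with the smallest unadjusted p there, was 0.30 ± 0.14 higher in KO lungs (interval -0.01 to 0.61, limma adjusted p = 0.695). These intervals leave room for differences in either direction for most members, so the tests do not show that the genotypes were alike.

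Ifi209 was close between genotypes in both oxygen states. The difference, KO minus control, was -0.01 in hypoxia with an interval of -0.62 to 0.60, and 0.15 in normoxia with an interval of -0.46 to 0.76. Its interaction, which is the hypoxia difference in KO minus that in control lungs, was -0.16 ± 0.39 (SE; interval -1.02 to 0.70, limma adjusted p = 0.937). The interval covers a larger and a smaller hypoxia difference in KO lungs.

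The interaction is the test of whether the hypoxia difference itself depended on genotype, and it uses the same arrays as the differences above. No member passed it in limma, against 0.00405% of all genes, and 2 had an unadjusted p under 0.05, against 8.25% of all genes. Ifi205 had 1.32 ± 0.41 (SE), an interval of 0.43 to 2.22 and an adjusted p of 0.574. Without the arrays of high Ucp1 the Ifi205 interaction was 1.63, with the hypoxia difference in KO lungs at 0.30. Without those of high Nppa it was 1.76, with that difference at 0.44, but both values then rest on 1 normoxic KO array. Over all alternatives other than leaving out single arrays, the Ifi205 interaction ran from 0.55 to 1.76. Aim2 had 0.50 ± 0.22, an interval of 0.02 to 0.98 and an adjusted p of 0.599. A hypoxia difference called in control and not in KO lungs is therefore not shown to differ between genotypes for any member. Averaged over oxygen states no member passed in KO against control lungs either, where 0% of all genes did. The adjusted p was 1.00 for all 10, and 1 member had an unadjusted p under 0.05, against 4.26% of all genes. Ifi207 was 0.38 ± 0.15 higher in KO lungs (interval 0.05 to 0.71) and Ifi205 0.37 ± 0.20 higher (interval -0.07 to 0.82).

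**Figure D4:**
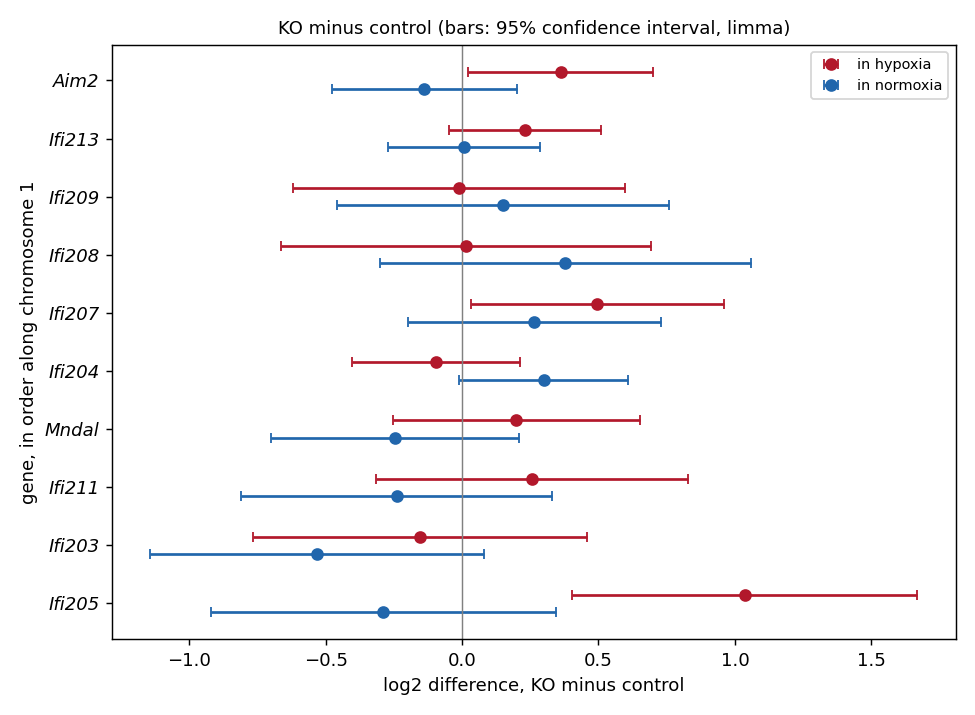
Log2 difference between KO and control lungs for each member, in hypoxia and in normoxia, with 95% intervals from limma. The intervals of Ifi205, Ifi207 and Aim2 in hypoxia lie above 0, and none of the 10 genes passed the adjusted test in either oxygen state.

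Some arrays held most members on the same side of their group mean. In normoxic KO replicate 4, 9 of 10 members were below it, with a mean deviation of -0.23 over the 10. In normoxic control replicate 4, 8 of 10 were below, with a mean of -0.20, and in hypoxic KO replicate 4 also 8 of 10, with a mean of -0.093. In normoxic KO replicate 2, 8 of 10 were above, with a mean of 0.20. Normoxic KO replicate 2 is also the array with the highest Ucp1 and Nppa, and the part of these tissues in the members' values was not tested.

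**Figure D5:**
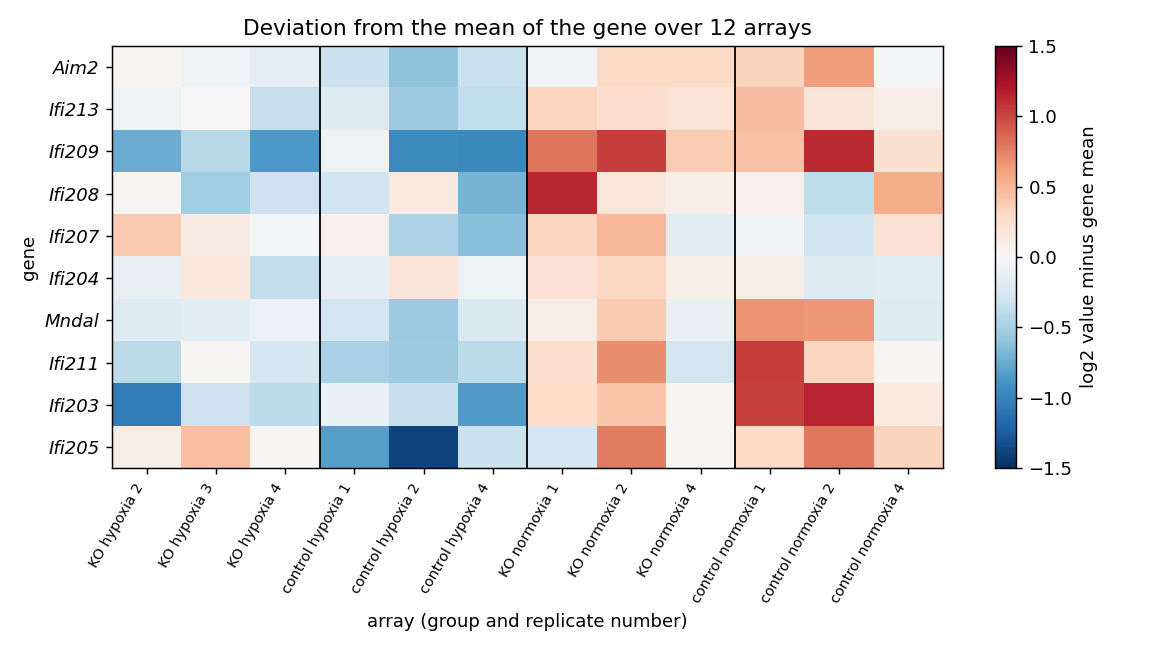
Log2 values of the 10 members on each array after subtracting each gene's mean over the 12 arrays, in chromosomal order, with blue for below and red for above the mean. Centred values run from -1.39, for Ifi205 on a hypoxic control array, to 1.14, for Ifi203 on a normoxic control array, and hypoxic columns are mostly blue.

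The gene-centred profile of Ifi209 over the 12 arrays was compared with every other gene by the mean absolute difference. The closest were Trbj1-1 (0.194 on the log2 scale), a joining segment of the T cell receptor β locus, Samd5 (0.214), the mucin gene Muc16 (0.244), Cd2ap (0.249) and Ctla2a (0.262). Among the other members, Ifi203 was nearest at 0.321, in place 50 of 24703 genes, followed by Ifi213 at 0.44 and Aim2 at 0.468. Ifi204 was farthest at 0.625, in place 5929. Likeness to Ifi209 thus varied widely inside the family. The points share the same 12 lungs, and the measure is a description.

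The 3 other cluster genes measured are given for comparison. Ifi214, whose promoter is nearly that of Ifi209, differed between oxygen states by -0.25 in KO and -0.53 in control lungs. Ifi206 differed by -0.58 in KO and 0.06 in control lungs. Ifi202b, a member without a pyrin domain that restrains Aim2, differed by -0.07 in KO and -0.09 in control lungs. None of the 3 was called in either genotype or averaged over both. All 3 were dim, at 4.12 or less on every array.

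The pathways around the sensors held genes called in both directions, with list medians near that of all genes (0.01). In hypoxia against normoxia averaged over genotypes, 14.7% of all genes were called in either direction at an adjusted p under 0.05. Of 24 genes of cytosolic DNA sensing through cGAS and Sting, 1 rose and 6 fell, with a median of -0.01. The one that rose was Sting1, the adaptor itself, by 0.47 ± 0.09 (SE; limma adjusted p = 0.0084). Among those that fell were the helicase gene Dhx36 at -0.63 ± 0.13 (limma adjusted p = 0.0094), the nucleotide hydrolase gene Samhd1 at -0.28 ± 0.07 and the kinase gene Tbk1 at -0.26 ± 0.07. Of 16 inflammasome genes, 1 rose and 3 fell, with a median of -0.03. Il1b, the cytokine gene that inflammasomes act on, was at -1.27 ± 0.14 (limma adjusted p = 0.00055). The inflammasome genes Nek7 and Casp4 were at -0.36 ± 0.08 and -0.62 ± 0.19, and Panx1, a channel gene, was at 0.23 ± 0.06.

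Interferon signalling and its usual targets also had medians near that of all genes. In the same averaged contrast 14.7% of all genes were called in either direction, and 7.4% of all genes were called lower. Of 17 signalling genes 1 rose and 2 fell, with a median of -0.01. Irf9, a subunit of the interferon-activated factor ISGF3, was higher by 0.33 ± 0.09 (SE; limma adjusted p = 0.028), and the kinase genes Jak1 and Jak2 were at -0.24 ± 0.06 and -0.45 ± 0.12. Ptpn2, a phosphatase gene, was at -0.36 ± 0.12 and was not called. Of 43 interferon-stimulated genes outside the cluster 3 rose and 0 fell, with a median of -0.03. Calls were thus no more frequent in this list than over all genes. The 3 that rose were the GTPase genes Igtp at 0.80 ± 0.14 (limma adjusted p = 0.0049), Irgm2 at 0.60 ± 0.10 and Gbp5 at 0.50 ± 0.14. Slfn5 was at -0.21 ± 0.07 and was not called.

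Some markers of immune cells were also called in hypoxia averaged over genotypes. There 14.7% of all genes were called in either direction, and 7.4% of all genes were called lower. Of 11 B cell markers 8 fell and 0 rose, with a median of -0.62. Their mean level lay between 5.88 and 6.41 in hypoxic KO, 6.03 and 6.5 in hypoxic control, 6.66 and 7.0 in normoxic KO, and 6.78 and 6.92 in normoxic control lungs, so it was lower on every hypoxic array, as Ifi209 was. With that mean as a covariate, the Ifi209 difference was -2.02 in KO and -1.69 in control lungs, and that of Ifi203 -1.69 in KO and -1.84 in control lungs, with 0 members in KO and 2 in control lungs called. Because the B cell mean did not overlap between oxygen states, these values extrapolate and do not show what share B cells had. Of the T cell markers 2 of 10 fell, of the NK cell markers 3 of 11, of the neutrophil markers 3 of 10 and of the dendritic cell markers 1 of 11, and 0 rose in those lists. Of 10 alveolar macrophage markers 5 rose and 0 fell. Their mean level was 8.16 to 8.27 in hypoxic KO, 7.99 to 8.40 in hypoxic control, 7.94 to 8.27 in normoxic KO and 7.54 to 7.87 in normoxic control lungs. Of 12 markers of monocytes and interstitial macrophages 3 rose and 3 fell. The part of any of these cells in the members' values was not tested.

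A list of 10 nuclear noncoding RNAs, whose level can follow RNA handling as well as cell state, moved too. Averaged over genotypes 5 fell and 0 rose, where 7.4% of all genes were called lower. Their mean was 5.30 to 5.67 in hypoxic KO, 5.23 to 5.43 in hypoxic control, 5.55 to 6.02 in normoxic KO and 5.81 to 6.28 in normoxic control lungs. With it as a covariate, Ifi209 differed by -1.18 in KO lungs and by -0.44 in control lungs. In control lungs Ifi203 then differed by -0.29, Ifi205 by -0.23, Ifi211 by -0.18, Aim2 by -0.29 and Mndal by 0.04, while Ifi213 differed by -0.55. No member was then called in either genotype. The list's mean did not overlap between oxygen states in control lungs and overlapped in KO lungs.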

How the data were processed

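RNA of whole lung, from lungs perfused to remove blood, was labelled with biotin and hybridised to Affymetrix arrays. The authors deposited log2 values for each probe set on each array, made with RMA per the submitters' processing notes. The RMA version and the probes' genome build were not given in the sources used here. RMA gives all arrays the same distribution, which the files showed, so a change in total RNA cannot be seen.

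Of 25428 probe sets, 24705 had 1 gene symbol and 723 had none. Keeping the brighter probe set where a symbol had more than 1 gave 24704 genes. Each gene was fitted in R 4.3.3 with limma 3.58.1 as 4 group means over all 12 arrays, moderated by empirical Bayes, leaving 8 residual degrees of freedom plus 3.61 from the prior. There were 7 contrasts, tested two-sided, with Benjamini-Hochberg adjustment over all genes in each. Genes with an adjusted p under 0.05 were called. Intervals are 95% intervals from that fit. Replicates were treated as separate mice, following the design text, and 3 arrays per group limit the precision.

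The members and the gene lists were chosen with earlier results of these data known. All members are named, with full statistics for the 2 of smallest unadjusted p in each genotype contrast and the interaction. Up to 4 genes of smallest p were named from each pathway list, and the 5 genes closest to Ifi209. Promoters came from RefSeq (GRCm38.p6) and were aligned with Biopython 1.88. Alternatives were other variance models and filters, each array left out, the replicate number as a block, and covariates for nuclear RNAs and Y-linked genes. Leaving out the arrays with high Ucp1 or Nppa, and the B cell covariate, were chosen after seeing the data.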

Additional observations from a re-analysis of the deposited data

How the results depend on the processing

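Of 665 hypoxia values of the members recomputed under the alternatives, 653 kept their sign. Many of these values could not change. A difference of group means stays the same under another variance model, a filter, or a fit of only the arrays compared. It also stays the same when an array of a group outside the contrast is left out. The counts of kept signs, here and in the next sentence, therefore overstate stability. KO against control lungs and the interaction were followed for the 2 members of smallest unadjusted p in each, and 176 of those 176 values kept their sign and stayed uncalled. Signs of the other members there were not followed, while the count of called members was 0 under each alternative. Mndal in control lungs turned to 0.035, against -0.72, with the nuclear RNA covariate, and the cause was not tested. The counts of called members depended on the settings far more. In KO lungs the count of 1 became 0 with the replicate block, with the nuclear RNA, Y-linked and B cell covariates, and without the arrays of high Ucp1 or of high Nppa. Leaving out single arrays gave 0 to 1, with 0 on leaving out each single KO array or normoxic control replicate 1. In control lungs the count of 7 became 1 with only the arrays compared, 0 with the nuclear RNA covariate, 2 with the B cell covariate and 5 with the replicate block. Leaving out single arrays gave 0 to 7, with 0 without hypoxic control replicate 2, 1 without normoxic control replicate 2, 2 without normoxic control replicate 1 and 3 without hypoxic control replicate 4. Averaged over genotypes, the count of 6 became 0 with the nuclear RNA or B cell covariate, 2 without the arrays of high Nppa, which leaves 1 normoxic KO array assumed to vary like the other groups, and 4 to 6 without single arrays. Over all genes, 282 calls in KO lungs became 508 with array weights, 40 with the block, 145, 166 and 3 with the nuclear RNA, Y-linked and B cell covariates, 51 and 11 without the arrays of high Ucp1 or Nppa, and 71 to 258 without single arrays. The 2839 calls in control lungs became 1100 with only the arrays compared, 2, 1794 and 736 with the nuclear RNA, Y-linked and B cell covariates, and 808 to 3920 without single arrays. The 3622 averaged calls became 60, 2180 and 51 with the nuclear RNA, Y-linked and B cell covariates, 677 without the arrays of high Nppa, and 2254 to 4426 without single arrays. Genotype contrasts within an oxygen state gave 0 to 1 genes and the interaction 0 to 3 without single arrays. Over all genes, same-numbered arrays were not more alike than others. Their deviations correlated at -0.25 to 0.28 over 15 pairs, and those of other arrays at -0.32 to 0.34 over 39. These ranges cannot exclude an effect of the replicate number on some genes. The members' mean deviation in replicate 4 was -0.093 in hypoxic KO, -0.067 in hypoxic control, -0.23 in normoxic KO and -0.20 in normoxic control lungs. With the number as a block, Ifi205 in hypoxia differed by 0.81 between KO and control lungs, and its interaction was 1.10. A filter on low values left 5 members untested.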
